A study of Mus musculus with 8 samples.

Results

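The vascular endothelial growth factor (VEGF) genes of cultured bone marrow mesenchymal stem cells (MSCs) were examined as a set of 9 genes, out of 47643 named entries in the expression table. The set was defined by gene name and held 4 ligands (Vegfa, Vegfb, Vegfc and Pgf), 4 receptors (Kdr, Flt1, Nrp1 and Nrp2) and the endothelial sialomucin Emcn. These names were chosen after their counts in the knockout comparison were known, so their levels and fold changes in that comparison are given as a description, without a test. All 9 passed the filter on low counts. The lists of other genes below, Figf among them, were also written with earlier results of these data known. Their p-values and counts of calls are therefore descriptive and no independent test.

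RNA-seq was available for 4 libraries of mouse C57BL/6 bone marrow MSCs. WT denotes 2 libraries labelled wild type, which by the methods section are Mettl3fl/fl littermate controls. The genotype of the 2 cKO libraries is Prx1-Cre;Mettl3fl/fl. Here a Cre driven by the Prx1 promoter, active in limb mesenchyme, removes the floxed part of Mettl3, the catalytic subunit of the N6-methyladenosine (m6A) methyltransferase. MeRIP-Seq, in which fragments carrying m6A are immunoprecipitated and set against input RNA, was done on 2 immunoprecipitates and 2 inputs of wild-type MSCs. Every sample was grown for 2 days in osteogenic medium with 100 nM dexamethasone, 50 μg/ml ascorbic acid and 5 mM β-glycerophosphate. The age of the donor mice, and whether replicates were separate animals or cultures, are not given in the sources used here, so p-values measure only the spread between these libraries.

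VEGF ligands are secreted proteins that drive the growth, survival and permeability of blood and lymphatic vessels. VEGF-A, the main product of this family, signals through the tyrosine kinase receptor VEGFR2, whereas VEGFR1 binds VEGF-A tightly and signals weakly, and the neuropilins act as co-receptors. In bone, VEGF-A made by osteoblast lineage cells and hypertrophic chondrocytes is known to couple vessel growth to bone formation, and vessels rich in endomucin accompany osteoprogenitors.

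The libraries held between 23978099 and 34106693 estimated counts. The 2 WT libraries differed from each other far more than the 2 cKO libraries did. Chi-square values per degree of freedom were 32.6 over 15223 genes in WT and 1.82 over 14742 genes in cKO. Whether the 2 cKO libraries came from separate cultures is not given, so SEs, intervals and SDs may leave out the spread between cultures. Mettl3 itself measured 17.6 and 16.9 CPM (counts scaled to library size) in WT and 17.5 and 16.3 CPM in cKO. These counts cover the whole gene, including exons outside the floxed part, and Mettl3 overlaps Tox4 on the other strand, so they do not check the genotype labels and every direction below rests on those labels. In the comparison of cKO with WT, 4677 of 15327 genes passed an adjusted p of 0.05 in edgeR's quasi-likelihood test, which is 30.5%, with 13.7% higher and 16.8% lower in cKO.

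Of the 9 genes, 6 lay past that threshold, 4 higher in cKO (Kdr, Nrp1, Nrp2 and Emcn) and 2 lower (Vegfa and Flt1), a count that describes the choice of genes and is no test of them. The CPM values of the groups did not overlap for 8 of the 9, against 68.9% of all genes tested, and 4 differed by at least 2-fold, against 11.4% of all genes tested. The median log2 fold change of the 9 was 0.33, against -0.0038 over all genes tested. The genes of the set lay in both directions. The most abundant ligand and 1 tyrosine kinase receptor were lower in cKO, while the other tyrosine kinase receptor, both neuropilins and Emcn were higher.

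**Figure D1:**
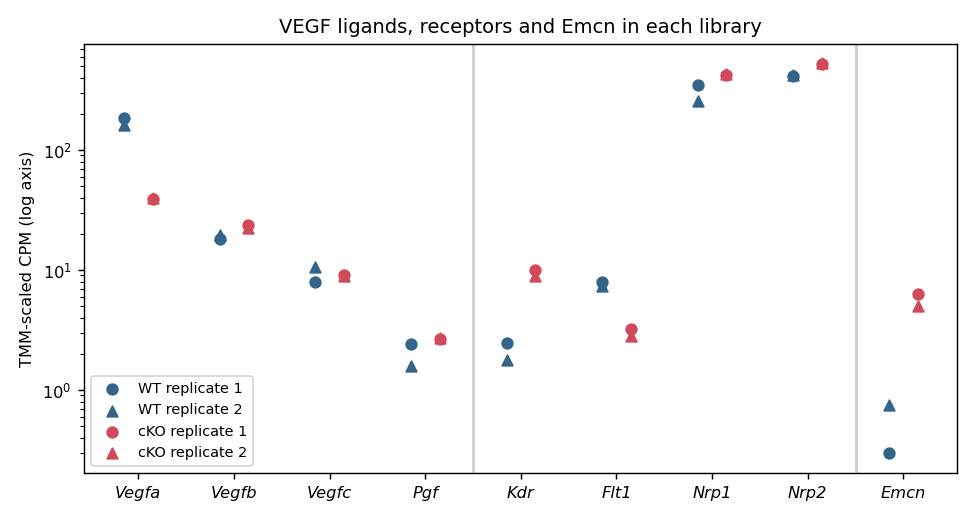
TMM-scaled CPM (log axis) of each of the 9 genes in each of the 4 libraries, with WT libraries in blue and cKO libraries in red, and replicate 1 as circles and replicate 2 as triangles. Vegfa lay at 185.4 and 160.6 CPM in WT and at 39.1 and 40.1 CPM in cKO, Emcn showed the widest gap in proportion, and the points of the groups overlap only for Vegfc.

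Vegfa (ENSMUSG00000023951, GRCm38 chr17:46016993-46032377, minus strand) encodes VEGF-A. It measured 185.4 and 160.6 CPM in WT and 39.1 and 40.1 CPM in cKO. Both cKO libraries lay far below both WT libraries, and the gap between groups was much wider than that between replicates. The fold change was 4.37-fold lower in cKO, or -2.13 on the log2 scale (SE 0.0860, n = 2 per group). With any 1 library left out, it lay between -2.23 and -2.01. In TPM, the deposited value scaled to gene length and to a fixed total per library, Vegfa averaged 102 ± 9.72 (SD, n = 2) in WT and 29.7 ± 0.205 in cKO, and 90.9% of the genes tested had a lower level in WT.

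The genes whose pattern over the 4 libraries was nearest to that of Vegfa, among 13064 ranked by Euclidean distance of centred log2(CPM + 1), were Mt2, Mme and Ugdh. Mt2, which encodes a metal-binding metallothionein, was the nearest at a distance of 0.0825 and measured 643.5 and 604.7 CPM in WT and 144 and 147.9 CPM in cKO. Mme (distance 0.084), which encodes the cell surface peptidase neprilysin, and Ugdh (distance 0.117), whose enzyme makes a precursor of hyaluronan, followed with log2 fold changes of -2.14 and -2.01.

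The Vegfa transcript carried 3 of the m6A peaks deposited for wild-type MSCs. Peak 1 lay in the 5′UTR, in exon 1 of 8 (mm9 chr17:46168853-46169116), with its summit at -126 nt from the start of the coding sequence in an annotated transcript whose coding sequence opens with CTG. Peaks 2 and 3 lay in the 3′UTR, in exon 8 (chr17:46155615-46155908 and chr17:46155035-46155389), with summits 54 nt and 585 nt past the last coding base. None of them lay in coding sequence. Peaks 1 and 3 had nearly the same fold enrichment over the local background, 4.08 and 4.13, near the median of 4.03 over all 10160 peaks, and peak 2 was the weakest of the set at 2.05. The pileup signals of 129 and 126 fragments at peaks 1 and 3 exceeded those of 89.8% and 88.7% of all peaks. Both of these peaks held the core letters of the m6A consensus, GGAC, which peak 2 did not. Their sites are shown because they carry the stronger enrichment on the transcript with the lowest cKO to WT ratio of the ligands. Each is 30 bases of mm9 on the transcript strand, with the GGAC nearest to the summit in capitals. The A of that GGAC lay 34 nt past the summit in peak 1 and 73 nt past it in peak 3.
Vegfa peak 1 (5′UTR, chr17:46168917-46168946, minus strand): cgaacagagagagGGACaggggcaaagtga
Vegfa peak 3 (3′UTR, chr17:46155138-46155167, minus strand): ccctgagtcaagaGGACagagagacagatg

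Vegfb (ENSMUSG00000024962, chr19:6982473-6987651), a ligand of VEGFR1 linked to fatty acid handling and vessel survival, was the second of the 4 ligands in WT by TPM. It measured 18.0 and 19.4 CPM in WT and 23.8 and 22.3 CPM in cKO. The groups did not overlap, but the difference was small, 0.30 on the log2 scale (SE 0.0916), and ranged from 0.24 without WT replicate 1 to 0.35 without WT replicate 2.

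Vegfc (ENSMUSG00000031520, chr8:54077532-54186454), the main lymphatic growth factor of the family, was the 1 gene of the 9 whose groups overlapped. It measured 7.87 and 10.5 CPM in WT and 9.0 and 8.88 CPM in cKO, so that both cKO libraries lay between the WT libraries. The log2 fold change was -0.04 (SE 0.162), with a 95% interval from -0.43 to 0.35, and it turned to 0.18 without WT replicate 2.

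Pgf (ENSMUSG00000004791, chr12:85166639-85177296), placental growth factor, a VEGFR1 ligand, was the lowest of the ligands. Its CPM was 2.43 and 1.59 in WT and 2.64 and 2.70 in cKO, from 45 to 86 counts per library. The log2 fold change of 0.40 (SE 0.266) had an interval from -0.24 to 1.04, and it was 0.75 without WT replicate 1 and 0.14 without WT replicate 2. A difference in either direction was thus not resolved by these 4 libraries. No m6A peak was listed for Vegfb, Vegfc or Pgf.

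Figf, the gene of VEGF-D, was not in the set of 9 and is the remaining VEGF ligand, one that binds VEGFR3 and shares its lymphatic role with VEGF-C. It measured 36.6 and 43.8 CPM in WT and 109.4 and 111.5 CPM in cKO and rose by 1.46 on the log2 scale (SE 0.0928, adjusted p = 0.000148 in edgeR). Summed over these 5 ligands, TPM was nearly equal in the libraries, 169 and 162.4 in WT and 159.6 and 159.5 in cKO. That near equality is a statement about TPM alone. On log2(TPM + 0.1), the log2 fold change of Vegfa was -1.78, against -2.13 in edgeR on counts. The median over all genes was 0.0965 on log2(TPM + 0.1), against -0.0038 in edgeR. The make-up differed. Vegfa held 64.6% and 58.7% of the ligand TPM in WT and 18.7% and 18.5% in cKO. Figf held 15.9% and 19.3% in WT and 53.3% and 54.5% in cKO, which made it the leading ligand there. The ratio of Vegfa to Figf by TPM was 4.07 and 3.04 in WT and 0.35 and 0.34 in cKO.

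**Figure D2:**
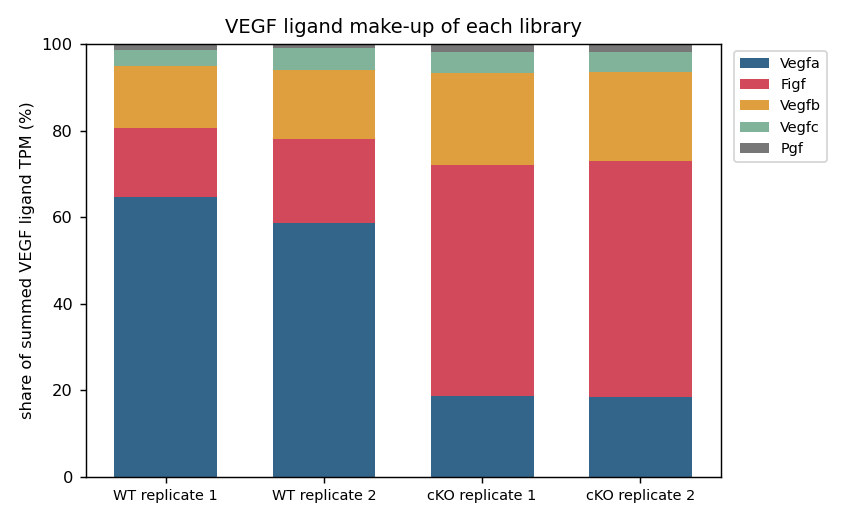
Share of the summed TPM of 5 VEGF ligands held by each ligand (y axis, percent) in each library (x axis), as stacked bars. Vegfa is the largest part in both WT bars (64.6% and 58.7%) and Figf in both cKO bars (53.3% and 54.5%), while Vegfc and Pgf stay below 6% and 2% in every bar.

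Among the receptors, the tyrosine kinase genes were scarce. Kdr (ENSMUSG00000062960, chr5:75932827-75978458) encodes VEGFR2, the receptor through which VEGF-A acts on endothelial cells. It measured 2.46 and 1.77 CPM in WT and 9.91 and 8.85 CPM in cKO, from 83, 50, 240 and 282 counts. The lowest cKO library lay well above the highest WT library. Their 95% Poisson intervals, which cover counting error only, were 7.84 to 9.94 CPM in cKO replicate 2 and 1.96 to 3.04 CPM in WT replicate 1. The difference was 4.39-fold higher in cKO, 2.14 on the log2 scale (SE 0.195), and lay between 1.92 and 2.40 with any 1 library left out.

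Flt1 (ENSMUSG00000029648, chr5:147561604-147726011) encodes VEGFR1, whose soluble form is a decoy for VEGF-A. Its CPM was 7.99 and 7.29 in WT and 3.22 and 2.82 in cKO, from 270, 206, 78 and 90 counts. Flt1 was 2.54-fold lower in cKO, -1.34 on the log2 scale (SE 0.160), with replicates closer to each other than the groups were. Kdr and Flt1 thus differed in opposite directions. Their order by TPM changed with it: Flt1 stood at 3.02 and 3.60 times Kdr in the WT libraries and at 0.369 and 0.278 times in the cKO libraries. Both stayed low, with WT means of 0.48 ± 0.113 TPM for Kdr and 1.57 ± 0.177 TPM for Flt1 and cKO means of 2.29 ± 0.177 and 0.745 ± 0.205 TPM (SD, n = 2). In bulk RNA, fewer cells of a type and less RNA per cell cannot be told apart. No m6A peak was listed for Kdr or Flt1.

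Neuropilins made up over 98% of the receptor TPM in every library. Nrp1 (ENSMUSG00000025810, chr8:128359073-128505462) binds VEGF-A and semaphorin 3A. It measured 346.9 and 255.0 CPM in WT and 418.3 and 425.6 CPM in cKO. All cKO values were above all WT values, yet the WT libraries differed more from each other than the nearer WT library did from cKO. The log2 fold change was 0.49 (SE 0.136), and it moved to 0.73 without WT replicate 1 and to 0.28 without WT replicate 2. Without cKO replicate 1 (0.50) or cKO replicate 2 (0.47), Nrp1 no longer lay past the threshold. The size of its difference therefore depended on which WT library was used.

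Nrp2 (ENSMUSG00000025969, chr1:62703285-62818695) binds VEGF-C and semaphorin 3F. Its CPM was 415.1 and 417.5 in WT and 522.7 and 525.7 in cKO. Replicates differed by under 4 CPM in each group, and the log2 fold change of 0.33 (SE 0.0549) lay between 0.33 and 0.34 with any 1 library left out. Without either cKO library, Nrp2 no longer lay past the threshold. The gene overlaps Gm29083 on the other strand and Gm37121 on its own, whose mean counts of 1.25 and 33.75 compare with 13810 for Nrp2. Nearest to the pattern of Nrp2 were Specc1l, Tcn2 and Pskh1, at distances of 0.00959, 0.0123 and 0.0152 and with log2 fold changes of 0.33, 0.34 and 0.35.

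The ratio of the more abundant receptors to the tyrosine kinase receptors also moved. By TPM, Nrp1 stood at 142 and 144 times Kdr in WT and at 42.2 and 48.2 times in cKO. Against Flt1 it moved the other way, from 47.1 and 40 times to 114 and 173 times.

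Both neuropilin transcripts carried m6A peaks, 3 on Nrp1 and 4 on Nrp2. On Nrp1, peak 1 lay in the 5′UTR (mm9 chr8:130883127-130883357), at -166 nt from the start codon. Peak 2 (chr8:131026419-131026898) had its summit 9 nt past the last coding base, in exon 17 of 17, and peak 3 (chr8:131026992-131027212) 408 nt past it. Peak 2 was the strongest of these by pileup, at 174 fragments, above 97.8% of all peaks, although its fold enrichment was 3.22, below the median of all peaks. On Nrp2, peaks 1 and 2 lay in the 5′UTR (chr1:62749875-62750265 and chr1:62750505-62750723), and peaks 3 and 4 in the 3′UTR (chr1:62862220-62862482 and chr1:62863618-62863818), 144 nt and 1519 nt past the last coding base. The 3′UTR peaks of Nrp2 had fold enrichments of 3.82 and 3.87, higher than the 2.88 and 2.55 of its 5′UTR peaks. Peak 1 of Nrp1 held no GGAC. For 5 of the other peaks, the site with the GGAC nearest to the summit is shown. Sites are given because Nrp1 and Nrp2 are the most abundant receptor transcripts of the set. The site of Nrp2 peak 1, whose nearest GGAC has its A 70 nt past the summit, is not shown. Capitals mark only the GGAC nearest to the summit, and the site of Nrp2 peak 3 holds another in lower case. The A of the marked GGAC lay 56 nt and 25 nt past the summit in peaks 2 and 3 of Nrp1. In peaks 2, 3 and 4 of Nrp2 it lay 6, 7 and 17 nt past the summit.
Nrp1 peak 2 (3′UTR, chr8:131026761-131026790, plus strand): ggtggaggcatggGGACtctgttactctgc
Nrp1 peak 3 (3′UTR, chr8:131027129-131027158, plus strand): gggcccttttgatGGACatgtgacctgtag
Nrp2 peak 2 (5′UTR, chr1:62750627-62750656, plus strand): agactgactgccaGGACccaggaggaaaac
Nrp2 peak 3 (3′UTR, chr1:62862344-62862373, plus strand): atactgaaggtatGGACaggacagacaggc
Nrp2 peak 4 (3′UTR, chr1:62863729-62863758, plus strand): gctgagccacagtGGACtgagtctggctac

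**Figure D3:**
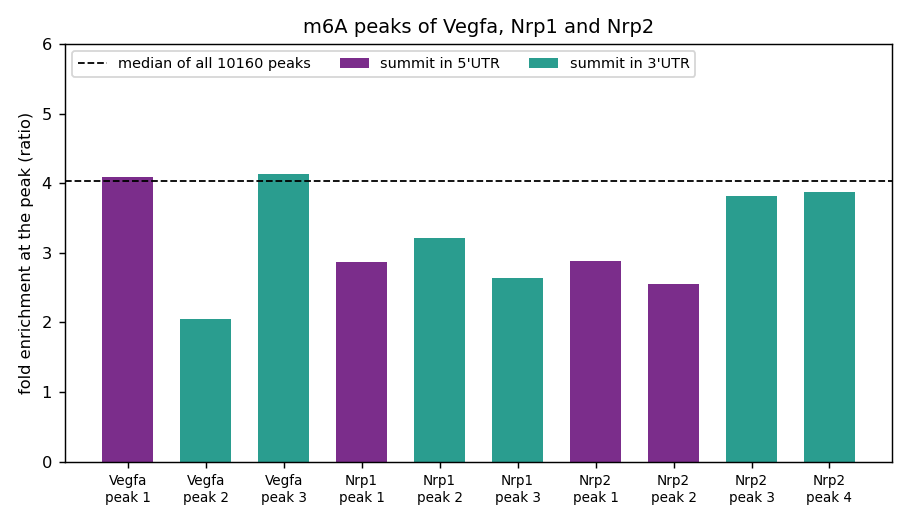
Fold enrichment (ratio over the local background, y axis) of the 10 m6A peaks on Vegfa, Nrp1 and Nrp2, coloured by the region of the summit, with a dashed line at the median of all 10160 peaks. Only peaks 1 and 3 of Vegfa, at 4.08 and 4.13, stand above the line at 4.03, and there is 1 peak list, so no error can be drawn.

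Together, 3 of the 9 genes held 10 peaks. A peak was listed for 40.1% of the 14118 tested genes found in the annotation used, and for 42.7% of those in the highest quartile of WT TPM, where Vegfa, Nrp1 and Nrp2 all lie. At least 3 peaks, as on each of these 3 genes, were listed for 759 genes, or 5.38%. Of the 10 summits, 6 lay in 3′UTRs, 4 in 5′UTRs and 0 in coding sequence. Over all 9397 peaks in genes, 59.8% of summits lay in coding sequence, 25.5% in 3′UTRs and 5.53% in 5′UTRs. GGAC was found on the transcript strand within 101 nt centred on the summit in 5 of the 10 peaks, against 60.2% of all peaks in genes, and within the whole peak in 8 of 10, against 86.8%. These letters mark a match and not a measured methylated base. The peaks come from wild-type cells only, so whether m6A on these transcripts differs in cKO was not measured here, and the transcripts with peaks had log2 fold changes of both signs (Vegfa -2.13, Nrp1 0.49, Nrp2 0.33).

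Emcn (ENSMUSG00000054690, chr3:137341067-137432185) encodes endomucin, a sialomucin of venous and capillary endothelium that marks the vessels known as type H in bone. It had 10 and 21 counts in the WT libraries and 152 and 160 counts in the cKO libraries, or 0.296, 0.743, 6.27 and 5.02 CPM. The highest WT library had a 95% Poisson interval of 0.46 to 1.14 CPM and the lowest cKO library one of 4.27 to 5.86 CPM. The difference was 11.1-fold, 3.47 on the log2 scale (SE 0.374), and lay between 2.91 without WT replicate 1 and 4.22 without WT replicate 2. It remained a low level even in cKO, 5.97 ± 0.877 TPM (SD, n = 2), compared with 0.45 ± 0.184 TPM in WT. No m6A peak was listed for Emcn.

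**Figure D4:**
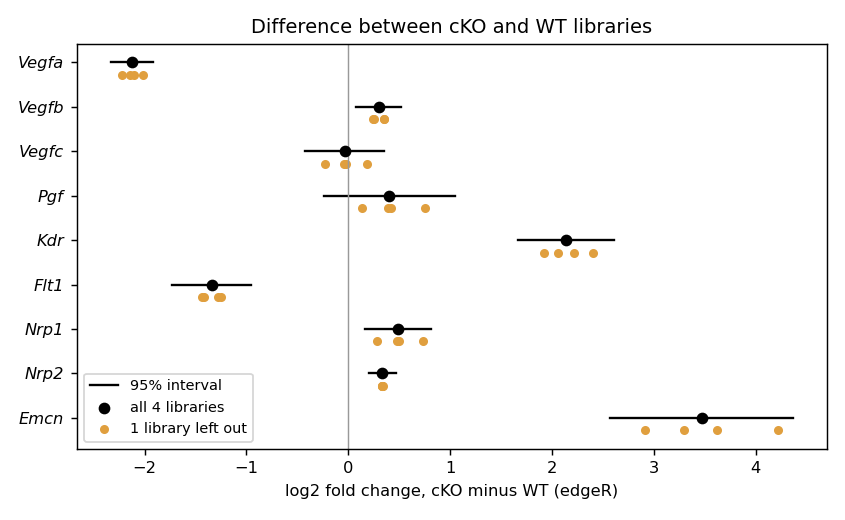
Log2 fold change of each gene, cKO minus WT (x axis), from edgeR with all 4 libraries (black points, with 95% intervals as lines) and with each library left out in turn (orange points). Vegfa and Flt1 lie left of 0 and Kdr and Emcn right of 0 in every fit, while the points of Vegfc lie on both sides and those of Nrp1 spread from 0.28 to 0.73.

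Kdr, Flt1 and Emcn are chiefly known from endothelial cells, so the levels of other endothelial genes are given beside them. Of 22 endothelial markers measured, 12 had at most 10 counts in every library. Cldn5 and Robo4 were at 0 in all 4. The 12 include Robo4 and Sox17, which the expression table gives spans shorter than their transcripts, so that their low counts are not read. Pecam1 had 9 and 7 counts in WT and 4 and 5 in cKO, and Cdh5 had 14 and 11 counts in WT and 4 and 6 in cKO. Others were higher in cKO by count, Tek with 7 and 2 against 15 and 9, Ptprb with 2 and 2 against 13 and 6, and Lyve1, also a marker of some macrophages, with 41 and 19 against 45 and 70, a log2 fold change of 1.09 that did not pass. The summed TPM of the list was lower in cKO, 22.7 and 24.5, than in WT, 35.1 and 35.2. Of 8 markers tested, 1 rose and 4 fell, against 13.7% and 16.8% of all genes tested, with a median log2 fold change of -1.02. The filter on low counts kept Cdh5 and Stab2, which were higher in WT by count, and left out Tek and Ptprb. The median thus depends in part on the filter, and genes it left out could not be called. Eng, a TGF-β co-receptor also present on stromal cells, led the list by level and fell by 0.71 on the log2 scale. Much of the summed TPM and of its difference was Eng, at 18.2 and 17.5 TPM in WT and 11.4 and 11.9 TPM in cKO. Clec14a fell by 2.02 (edgeR adjusted p = 0.00595) and Egfl7 by 1.16 (adjusted p = 0.0179), and Vwf, von Willebrand factor, rose by 0.44 (adjusted p = 0.0437). By TPM, however, Vwf was lower in cKO, at 2.66 and 3.57, than in WT, at 3.61 and 3.71. Egfl7 and Vwf did not pass with either cKO library left out, where fewer of the 8 passed, as over all genes tested. The part of endothelial cells in the levels of Kdr, Flt1 and Emcn was not tested.

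The cultures held many transcripts of macrophages, cells that can express Flt1 and Nrp1. The summed TPM of 10 macrophage markers was 19400 and 24800 in WT and 27000 and 27200 in cKO, most of it from Lyz2, the gene of lysozyme. Of the 10, 2 rose, Ptprc by 0.42 (edgeR adjusted p = 0.00333) and Fcer1g by 0.29 (adjusted p = 0.0164), 0 fell and 8 did not pass, where 30.5% of all genes tested passed. At an unadjusted p under 0.05, 4 passed and 1 of them was lower in cKO, and DESeq2 also called 2. In edgeR, more of the 10 passed with either WT library left out and fewer with either cKO library left out, as over all genes tested. Those that passed with a WT library left out lay in both directions. Macrophages derive from blood-forming cells and not from the limb mesenchyme in which Prx1-Cre acts. The part of these cells in the levels of Flt1 and Nrp1 was not tested.

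Other genes of the VEGF system, outside the 9, comprised receptors, processing enzymes and signalling partners. Of the 10 that passed the filter, 2 rose, 4 fell and 4 did not pass, with a median log2 fold change of -0.13. Over all genes tested, 13.7% rose and 16.8% fell. Figf is described above. Adamts3, which encodes the protease that activates pro-VEGF-C together with CCBE1, had 72 and 72 counts in WT and 9 and 13 in cKO and fell by 2.56 on the log2 scale (SE 0.312, edgeR adjusted p = 0.00201). Flt4, the gene of VEGFR3, fell by 1.05 (SE 0.236, adjusted p = 0.0189) from 106 and 74 counts to 34 and 44. Plcg1, a signalling enzyme recruited by VEGFR2, rose by 0.30 (adjusted p = 0.0204). Dab2, an endocytic adaptor and the most abundant of the list by TPM, had a log2 fold change of 0.37 that did not pass. With any 1 library left out, Figf lay between 1.34 and 1.59 and Adamts3 between -2.68 and -2.43. Flt4 and Plcg1 did not pass with either cKO library left out, where fewer of the 10 passed, as over all genes tested.

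The class 3 semaphorins, secreted guidance proteins that compete with VEGF for neuropilins, their plexin receptors and the neuropilin-binding adaptor Gipc1 went in both directions. Of 13 tested, 5 rose, 3 fell and 5 did not pass, with a median of 0.09, whereas 13.7% of all genes tested rose and 16.8% fell. Sema3a, the ligand of Nrp1, rose by 1.24 on the log2 scale (SE 0.168, edgeR adjusted p = 0.00300), from 2.69 and 2.62 CPM in WT to 5.90 and 6.62 CPM in cKO. Sema3f, the ligand of Nrp2, fell by 0.87 (SE 0.170, adjusted p = 0.0118), from 5.74 and 5.59 CPM to 2.85 and 3.33 CPM. Sema3b rose by 1.05 (adjusted p = 0.0184) and Sema3g fell by 2.28 (adjusted p = 0.00370). Plxna1, the most abundant of them by TPM, rose by 0.65 (adjusted p = 0.00839). Fewer of the 13 passed with cKO replicate 1 or cKO replicate 2 left out, as over all genes tested. Sema3f lost its call in both of those fits and Sema3b without cKO replicate 1.

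Among 10 genes of oxygen sensing, the pathway through which low oxygen induces Vegfa, 2 rose, 2 fell and 6 did not pass, with a median of 0.01 (all genes tested: 13.7% rose, 16.8% fell). Hif1a, which encodes the main hypoxia-inducible factor subunit, fell by 0.46 on the log2 scale (SE 0.131, edgeR adjusted p = 0.0408), from 238.5 and 319.4 CPM in WT to 205.4 and 199.8 CPM in cKO, and by 0.65 without WT replicate 1 and 0.24 without WT replicate 2. Epas1, the gene of HIF-2α, fell by 0.50 (SE 0.104, adjusted p = 0.0142). Arnt2 and Hif3a, genes of a partner subunit and of a HIF that can repress the others, rose by 2.09 (adjusted p = 0.000615) and 1.46 (adjusted p = 0.00103). Hif1a and Epas1 did not pass with either cKO library left out. Fewer of the 10 passed in those fits, and more with either WT library left out, as over all genes tested.

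**Figure D5:**
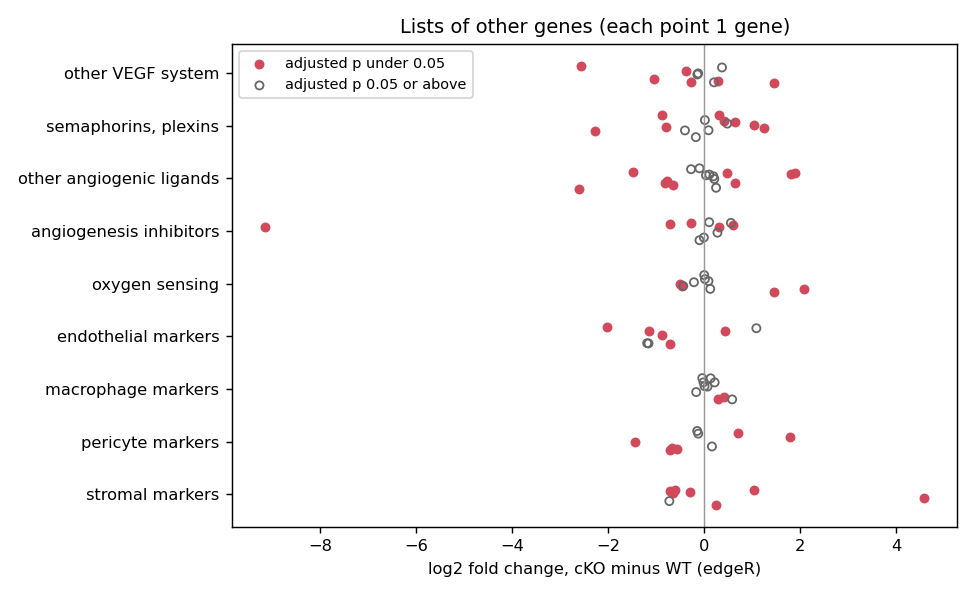
Log2 fold change of every tested gene in 9 lists, cKO minus WT (x axis, edgeR), with 1 row of points per list, filled where the adjusted p was under 0.05. Every list except that of macrophage markers holds filled points on both sides of 0, and the point near -9 among the angiogenesis inhibitors is Lect1.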

How the data were processed

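RNA-seq libraries (2 WT, 2 cKO) and 4 MeRIP-Seq samples were grouped by their labels. The members and lists were chosen with earlier results of these data known. According to the study's methods, reads were mapped with HISAT2 2.0.4 and genes tested with Ballgown, and the counting method and use of strand are not given in the sources used here. The authors deposited estimated counts per gene (23978099 to 34106693 per library), not normalized, with positions on GRCm38, and a normalized value that sums to the same fixed total in each library, treated here as TPM. Entries without a name, 89 of 47732, held 0.11% to 0.125% of counts and were left out. The authors deposited 1 peak list on mm9 with a pileup signal, a fold enrichment ratio and −log10 q-values (its p-value column was not used). Whether samples were pooled is not stated, so peaks have no replicate error. Mm9 was inferred from the positions.

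Estimated counts were rounded, filtered (filterByExpr), scaled by TMM (factors 0.987 to 1.01) and compared by the two-sided quasi-likelihood test of edgeR 4.0.16 in R 4.3.3, without a replicate block and with Benjamini-Hochberg adjustment over 15327 genes. The code was tested on simulated data. Alternatives were DESeq2 1.42.0, limma 3.58.1 on log2(TPM + 0.1) and log2(TPM + 1), other scaling, no filter, a replicate block, leaving out each library, summed cKO libraries, the study's 2-fold rule, and stricter peak limits. Named genes are the 9 members, Mettl3, the 3 genes nearest in pattern to Vegfa and to Nrp2, and in each list the 2 largest and 2 smallest called log2 fold changes and the most abundant gene. Pecam1, Cdh5, Cldn5, Robo4, Sox17, Stab2, Tek, Ptprb, Lyve1 and Gipc1 were named after their values were seen. Summits were placed on GENCODE vM1 transcripts in the order coding sequence, 3′UTR, 5′UTR, noncoding exon, intron, and sequences read from the NCBIM37 (mm9) genome. Poisson intervals are exact, at 95%, and cover counting error only.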

Additional observations from a re-analysis of the deposited data

How the results depend on the processing

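Since the 9 genes were chosen on this comparison, their calls are listed as values and support nothing. Vegfa, Kdr, Flt1 and Emcn kept their sign under all 12 alternatives, as did Vegfb, Pgf, Nrp1 and Nrp2. The 2-fold rule used the main fit, so it could not change a sign. Flt1 was at -0.996 on the log2 scale and missed the threshold with limma on log2(TPM + 0.1). The pseudocount of 1, large beside these TPM values, gave -0.559 for Flt1, 1.15 for Kdr and 2.27 for Emcn. Nrp1 missed it with limma (0.60 at both pseudocounts), with the cKO libraries summed to 1 sample (0.49) and under a 2-fold rule (0.49), and Nrp2 with the cKO libraries summed (0.33) and under that rule (0.33), as the rule's size demands. Vegfb passed with median-of-ratios size factors (0.30), with no filter (0.30) and with limma (0.41 and 0.40). Vegfc turned to 0.074 and 0.065 with limma, which shifts the median of all genes to 0.0965 and 0.0778. With 1 library left out, Nrp1 ranged from 0.28 to 0.73, Nrp2 from 0.33 to 0.34, Vegfb from 0.24 to 0.35, Vegfc from -0.23 to 0.18 and Pgf from 0.14 to 0.75. A lone sample is assumed there to vary like the other group.

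Over all genes, 4677 calls became 1889 to 8719 with 1 library left out (724 to 4226 higher, 1165 to 4493 lower), the large counts without a WT library and the small ones without a cKO library. They became 1981 with the cKO libraries summed (752 higher, 1229 lower) and 1611 under an unadjusted p with a 2-fold change (508 and 1103), and limma called 1442 and 1414 genes lower. DESeq2 called 3862. With 1 library left out, calls ranged from 2 to 9 in the VEGF system, 4 to 10 among neuropilin partners, 2 to 8 among inhibitors, 2 to 7 in oxygen sensing, 2 to 7 among endothelial, 0 to 9 among macrophage and 4 to 7 among stromal markers. DESeq2 and limma each called 3 endothelial markers, and limma 3 stromal markers, 3 neuropilin partners and 1 oxygen-sensing gene. At a fold enrichment of at least 4, 2 peaks on 1 gene remained. Apart from the settings named, the cause of these changes was not tested.

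Samples with the same replicate number did not deviate together (correlation 0.032). The 2 cKO libraries differed little from each other, so this value cannot show whether the numbers paired the samples. With the replicate block, 4881 genes were called, and it changed no call among the 9 genes. The labels give no batch or date. Low counts limit Emcn, Pgf, Kdr and Flt1, and with 2 libraries per group an exact permutation test cannot go below 0.333.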

Other observations

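Other secreted angiogenic ligands also went in both directions. Of 16 tested, 4 rose, 5 fell and 7 did not pass in edgeR, with a median log2 fold change of 0.07. Over all genes tested, 13.7% rose and 16.8% fell, which is also the background of the lists that follow. Adm, which encodes the vasodilator adrenomedullin, rose by 1.82 on the log2 scale (adjusted p = 8.37e-05), from 14.7 and 12.5 CPM in WT to 47.3 and 48.7 CPM in cKO, and Edn1, endothelin 1, rose by 1.90 from 12 and 9 counts to 38 and 32, a call lost without cKO replicate 1. Apln, the gene of the vascular peptide apelin, fell by 2.61 (adjusted p = 0.000582) and Angptl4 by 1.47 (adjusted p = 0.00963). Cxcl12, the chemokine of marrow stroma and the most abundant of the list by TPM, fell by 0.65 (adjusted p = 0.0184), a call lost without either cKO library, and by 0.39 without WT replicate 1 and 0.87 without WT replicate 2.

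Of 10 endogenous angiogenesis inhibitors tested, 2 rose, 3 fell and 5 did not pass, with a median of 0.05. Lect1, which encodes chondromodulin, an inhibitor known from cartilage, had 1608 and 1076 counts in WT and 0 and 4 in cKO. Col18a1, whose protein contains endostatin, fell by 0.72 (edgeR adjusted p = 0.00969), whereas Timp3 and Serpinf1 rose by 0.61 (adjusted p = 0.0463) and 0.31 (adjusted p = 0.0114), and Thbs1, the most abundant by TPM, measured -0.0056 and did not pass. Timp3 and Serpinf1 did not pass with either cKO library left out. Timp3 measured 0.34 without WT replicate 1 and 0.95 without WT replicate 2. Fewer of the 10 passed with either cKO library left out, and more with either WT library left out, as over all genes tested.

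Of 9 pericyte and smooth muscle markers tested, 2 rose and 4 fell, with a median of -0.14. Notch3, a receptor of mural cells, rose by 1.79 (edgeR adjusted p = 7.04e-05) and Pdgfrb by 0.70 (adjusted p = 0.000400), while Acta2, smooth muscle actin, fell by 0.70 (adjusted p = 0.00151) and Abcc9 by 1.44 from 35 and 23 counts to 8 and 11, a call lost without WT replicate 1, cKO replicate 1 or cKO replicate 2. Of 8 marrow stromal markers, 3 rose and 4 fell, with a median of -0.45. Fewer passed with either cKO library left out, as over all genes tested. Thy1, a surface glycoprotein of fibroblasts, rose by 4.59 (adjusted p = 7.34e-05), from 133 and 54 counts to 1809 and 2212, and Prrx1, the gene whose regulatory sequence drives the Cre used here, rose by 1.05 (adjusted p = 0.000150). Ly6a, the gene of Sca-1 and the most abundant of this list by TPM, fell by 0.30 (adjusted p = 0.0315), a call lost without either cKO library.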
